A study of Mus musculus with 32 samples.

Results

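The 9 genes described here encode enzymes of hepatic triglyceride synthesis: *Gpam*, *Agpat2*, *Agpat3*, *Lpin1*, *Lpin2*, *Lpin3*, *Dgat1*, *Dgat2* and *Mogat1*. They were chosen by name for their place in the pathway, and are 9 of the 20076 genes in the count table. Liver RNA of male MCAD-KO mice and of littermate wild-type (WT) mice, both on a C57BL/6J background, was sequenced from the 3′ ends of transcripts. The KO mice carry a knockout of *Acadm*, which encodes the medium-chain acyl-CoA dehydrogenase (MCAD) of mitochondrial fatty-acid oxidation. Mice received a low-fat (LF) or a high-fat (HF, palm oil) semisynthetic diet for 6 weeks and were then either fasted for 16 h or left on the diet (fed). All groups received a semisynthetic diet, so that none stands for laboratory chow. The design has 8 groups of 4 mice. Age entries in the labels ran from 7.5 to 16 and carry no unit there. Of the 32 mice, 30 were compared. Replicate 4 of KO HF fasted (heart markers) and replicate 2 of WT LF fed (treated as an outlier) were left out, which leaves 3 mice in each of those groups. Levels in both are given at the end.

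Triglyceride is built by adding acyl chains to a glycerol backbone. Glycerol-3-phosphate acyltransferases such as the mitochondrial enzyme encoded by *Gpam* start the chain of reactions, acylglycerophosphate acyltransferases (*Agpat2*, *Agpat3*) make phosphatidic acid, lipins (*Lpin1*, *Lpin2*, *Lpin3*) remove its phosphate to give diacylglycerol, and diacylglycerol acyltransferases (*Dgat1*, *Dgat2*) add the last acyl chain. *Mogat1* encodes a monoacylglycerol acyltransferase that reaches diacylglycerol from monoacylglycerol. In liver, insulin and dietary carbohydrate are known to drive the lipogenic genes through SREBP-1c and ChREBP, and fasting brings fatty acids from adipose tissue that the liver re-esterifies or oxidizes.

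Total counts ranged from 2031053 to 4292200 per mouse. Levels are given as CPM, read counts scaled to the normalised library total. Summed hepatocyte markers (8 genes) lay between 38060 and 62310 CPM in the 30 mice. In the left-out KO HF fasted replicate 4 they summed to 750 CPM and 5 heart markers to 14380 CPM, against at most 12.9 CPM for heart in the others. Acinar pancreas markers (7 genes, none at 0) summed to 15190 CPM in WT HF fasted replicate 2 and to 2234 CPM in KO HF fed replicate 1, and to at most 48.7 CPM elsewhere. Skeletal muscle markers (4 genes) summed to 961 CPM in KO HF fed replicate 1, 522 CPM in WT HF fed replicate 4 and 212 CPM in WT HF fasted replicate 4. Adrenal cortex markers (4 genes) summed to 135 and 54.9 CPM in KO LF fasted replicates 3 and 4, 2 of the 4 mice of that group, to 25.9 CPM in KO HF fed replicate 1 and to 24.5 CPM in WT HF fasted replicate 3. In whole liver, fewer cells of a type and less RNA per cell cannot be told apart. *Acadm* itself had a KO to WT log2 fold change of -4.44 (SE 0.12, adjusted p = 6.5e-27, edgeR's quasi-likelihood F test, Benjamini-Hochberg over 11566 genes) and was the only gene called for genotype averaged over diet and feeding.

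The genes lie apart on the GRCm38 build: *Gpam* on chromosome 19 (55067268-55127238, minus strand), *Agpat2* on chromosome 2 (26593057-26604417, minus), *Agpat3* on chromosome 10 (78269178-78352489, minus), *Lpin1* on chromosome 12 (16535669-16610966, minus), *Lpin2* on chromosome 17 (71182560-71249817, plus), *Lpin3* on chromosome 2 (160880670-160906002, plus), *Dgat1* on chromosome 15 (76502015-76511953, minus), *Dgat2* on chromosome 7 (99153658-99182719, minus) and *Mogat1* on chromosome 1 (78510991-78538173, plus). Exons of *Agpat2* overlap those of *Egfl7*, and exons of *Mogat1* those of *BC035947*, in both cases on the opposite strand. The strand setting of the counting is not given in the sources used here, so reads of these pairs may not be separable. RefSeq promoter windows (GRCm38.p6) were found for 7 of the 9 genes. The 250 bases before the start are shown for the members that passed the test for fasting or for diet and have a window, because these are the genes whose mRNA moved (the outermost start in the direction of transcription where a gene has several). Capitals mark a match to one of 4 motifs searched on both strands in letters: the E-box CACGTG, the sterol regulatory element TCACNCCAC, the cAMP response element TGACGTCA and the FoxO element GTAAACA, none of which overlaps another here.
Gpam, chr19:55127239-55127488, minus: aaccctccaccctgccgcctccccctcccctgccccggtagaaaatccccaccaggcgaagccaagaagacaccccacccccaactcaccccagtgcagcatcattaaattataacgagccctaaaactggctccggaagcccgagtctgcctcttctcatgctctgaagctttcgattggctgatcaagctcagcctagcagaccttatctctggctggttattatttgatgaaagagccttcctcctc
Agpat3, chr10:78351701-78351950, minus: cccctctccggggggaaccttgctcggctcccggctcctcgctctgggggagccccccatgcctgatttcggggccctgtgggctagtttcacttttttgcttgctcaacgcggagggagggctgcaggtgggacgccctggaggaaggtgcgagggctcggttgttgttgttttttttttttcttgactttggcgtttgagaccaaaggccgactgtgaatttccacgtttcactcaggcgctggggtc
Lpin1, chr12:16610967-16611216, minus: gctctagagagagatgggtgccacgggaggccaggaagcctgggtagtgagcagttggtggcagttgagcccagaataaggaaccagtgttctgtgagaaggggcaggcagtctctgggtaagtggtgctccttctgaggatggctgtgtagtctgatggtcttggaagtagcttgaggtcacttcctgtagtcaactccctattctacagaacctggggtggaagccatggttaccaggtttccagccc
Lpin2, chr17:71183282-71183531, plus: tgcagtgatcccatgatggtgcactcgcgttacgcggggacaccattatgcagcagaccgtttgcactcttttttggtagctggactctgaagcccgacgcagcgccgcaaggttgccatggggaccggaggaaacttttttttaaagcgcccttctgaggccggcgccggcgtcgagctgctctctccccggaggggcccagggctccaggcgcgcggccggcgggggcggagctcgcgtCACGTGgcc
Of these 4 windows only that of *Lpin2* held a match, an E-box 9 to 4 bases before the start. A second *Lpin2* start further downstream (chr17:71204404-71204653 for the bases before it) had 1 FoxO match, 138 to 132 bases before that start. Among 32851 windows of the same length, 6.02% held the E-box, 1.05% the sterol regulatory element, 1.55% the cAMP response element and 3.17% the FoxO element. A match is a stretch of letters and not a measured binding site, and a window without one says nothing of the factors.

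Fasting moved 5 of the 9 genes, and not in 1 direction. Averaged over the 4 combinations of genotype and diet, *Agpat3*, *Lpin2* and *Dgat1* were upregulated and *Gpam* and *Dgat2* were downregulated (edgeR's quasi-likelihood test, adjusted p below the threshold of 0.05). *Agpat2*, *Lpin1*, *Lpin3* and *Mogat1* did not pass. Over all 11566 genes tested, 18.9% were called for fasting, 9.79% higher and 9.14% lower. The median log2 fold change was 0.07 over the 9 genes and -0.0019 over all genes tested. The plot of every mouse shows the 9 genes on a log scale.

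**Figure D1:**
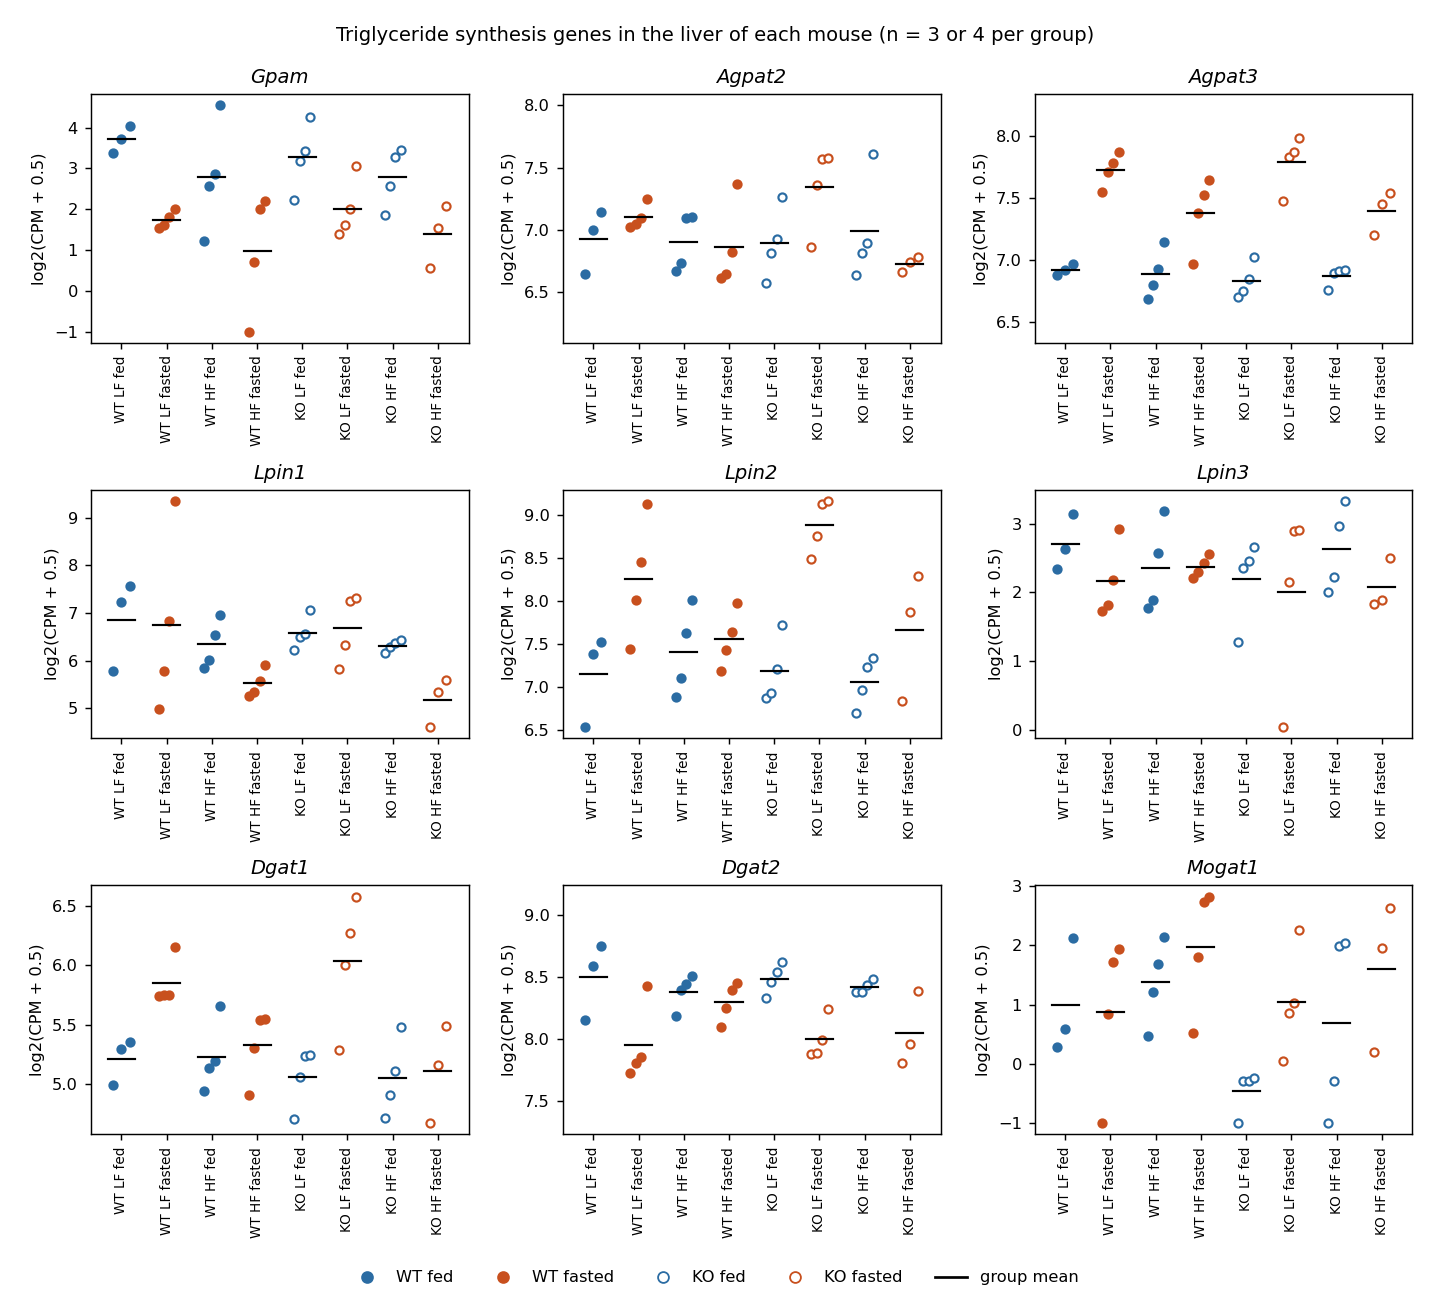
Each panel is 1 gene and each point 1 mouse, as log2 of CPM plus 0.5, in the 8 groups of genotype, diet and feeding (filled circles WT, open circles KO, blue fed, orange fasted, black line the group mean on this scale). The y axes differ between panels. Fasted mice sit above fed mice for *Agpat3* except in WT HF, where both groups overlap, and mostly below them for *Gpam*, and 1 fasted WT mouse on the LF diet stands far above the rest for *Lpin1*.

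*Gpam*, the mitochondrial acyltransferase of the committing step, had few reads (0 to 77 per mouse) and was lower in fasted mice. In WT mice on the LF diet it stood at 9.82, 12.7 and 16.1 CPM in the 3 fed mice and at 2.97, 2.40, 2.58 and 3.53 CPM in the 4 fasted mice, without overlap. The WT mice on the HF diet had fed values of 5.43, 1.82, 22.9 and 6.74 CPM and the fasted values 4.12, 1.13, 3.48 and 0 CPM, the last being 0 reads, which allows up to 1.15 CPM (3 reads; counting error only). These HF groups overlapped through the fed mouse at 1.82 CPM. For KO mice on the LF diet the fed values were 8.62, 4.20, 10.3 and 18.7 CPM and the fasted values 3.52, 2.57, 2.10 and 7.80 CPM. For KO mice on the HF diet the fed values were 3.13, 10.4, 5.39 and 9.27 CPM and the fasted values 0.964, 3.73 and 2.43 CPM. Both KO pairs overlapped by 1 mouse on each side. The averaged fold change was -1.78 on the log2 scale (SE 0.33, adjusted p = 1.1e-04, edgeR), a 3.43-fold lower level. Within single conditions *Gpam* was called only in WT mice on the LF diet (log2 fold change -2.14, SE 0.65, adjusted p = 0.0383 by edgeR's quasi-likelihood test), and that call was lost when any 1 of those 7 mice was left out, at -1.95 to -2.31. All fed WT mice on the LF diet were sequenced in lane 8 and the fasted ones in both lanes, and with lane as a term the calls in this condition were lost for *Gpam* (-1.98, adjusted p = 0.0737), *Lpin2* (1.19, adjusted p = 0.0737) and *Dgat2* (-0.53, adjusted p = 0.0589, edgeR in all).

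*Agpat3*, which encodes an acyltransferase that also acts on other lysophospholipids, had the smallest p of the 9 genes. WT mice on the LF diet had 125, 120 and 117 CPM fed and 220, 233, 209 and 187 CPM fasted. KO mice on the LF diet had 115, 129, 107 and 104 CPM fed and 227, 252, 178 and 234 CPM fasted. Every fasted mouse on the LF diet was above every fed mouse, in both genotypes. On the HF diet the WT values were 121, 103, 111 and 141 CPM fed and 166, 125, 183 and 199 CPM fasted, and the KO values 108, 120, 120 and 119 CPM fed and 147, 175 and 185 CPM fasted. Only the WT HF groups overlapped, by 1 mouse on each side, the fed mouse at 141 CPM and the fasted mouse at 125 CPM. That fed mouse (replicate 4) carries skeletal muscle markers and that fasted mouse (replicate 2) acinar pancreas markers, whose part was not tested. Averaged over the 4 conditions *Agpat3* rose by 0.70 on the log2 scale (SE 0.08, adjusted p = 6.1e-09, edgeR), 1.63-fold. It was called on the LF diet in WT (0.81, adjusted p = 7.6e-04) and in KO mice (0.97, adjusted p = 1.2e-05, edgeR in both), whereas on the HF diet it was 0.50 in WT (adjusted p = 0.124) and 0.53 in KO mice (adjusted p = 0.153). *Agpat2*, the acyltransferase whose loss causes lipodystrophy, ranged from 94.5 to 195 CPM in fed and from 97.6 to 190 CPM in fasted mice. Its fasting difference was 0.07 (SE 0.10, adjusted p = 0.695, edgeR), smaller than its SE.

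*Lpin2*, the lipin that is prominent in liver, was upregulated by fasting on the LF diet. In KO mice on this diet it stood at 147, 116, 121 and 211 CPM fed and at 575, 434, 359 and 561 CPM fasted, without overlap. WT mice on this diet had 91.8, 166 and 184 CPM fed and 561, 350, 173 and 258 CPM fasted, so that 1 fasted mouse fell within the fed range. Under HF the WT values were 137, 118, 258 and 197 CPM fed and 199, 144, 172 and 251 CPM fasted, and the KO values 150, 125, 161 and 103 CPM fed and 113, 313 and 233 CPM fasted. The WT HF groups covered nearly the same range, and 1 fasted KO HF mouse was as low as the fed ones. The averaged change was 0.93 on the log2 scale (SE 0.18, adjusted p = 3.1e-04, edgeR), 1.90-fold. In KO mice on the LF diet it was 1.69 (SE 0.34, adjusted p = 0.0011) and in WT mice on the LF diet 1.19 (SE 0.37, adjusted p = 0.0495, edgeR in both), the latter lost in 23 of 30 fits that each left out 1 mouse. On the HF diet the values were 0.11 in WT (SE 0.33) and 0.71 in KO mice (SE 0.36), and neither passed. The slices by sequencing lane had fewer mice, and there the averaged change was 0.83 in lane 7 (adjusted p = 0.169) and 0.85 in lane 8 (adjusted p = 0.0869, edgeR), where it did not pass.

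*Lpin1*, a phosphatidate phosphatase that also acts as a transcriptional coactivator, did not pass for fasting, and 1 mouse decides its values. In WT mice on the LF diet it stood at 54.4, 190 and 150 CPM fed and at 651, 114, 31 and 54.5 CPM fasted. The 651 CPM of fasted replicate 1 rests on 1751 reads and stands apart, as no other mouse exceeded 190 CPM. Among KO mice on the LF diet the values were 74.4, 89.9, 93.8 and 132 CPM fed and 56.3, 152, 79.9 and 159 CPM fasted, overlapping. Under HF the WT values were 64.4, 57.3, 124 and 92.5 CPM fed and 37.6, 59.7, 39.9 and 47.2 CPM fasted, and the KO values 70.7, 82.4, 77.6 and 85.7 CPM fed and 23.8, 39.7 and 48.0 CPM fasted. Fasted KO mice on the HF diet thus lay below all fed ones. Averaged over conditions the fasting change was -0.27 (SE 0.32, adjusted p = 0.650, edgeR), and without WT LF fasted replicate 1 it was -0.69 (SE 0.21, adjusted p = 0.0240). *Lpin3*, the lipin with the fewest reads here (1 to 29 per mouse), ranged from 1.92 to 9.55 CPM in fed and from 0.526 to 7.06 CPM in fasted mice, with a change of -0.29 (SE 0.25, adjusted p = 0.486, edgeR).

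**Figure D2:**
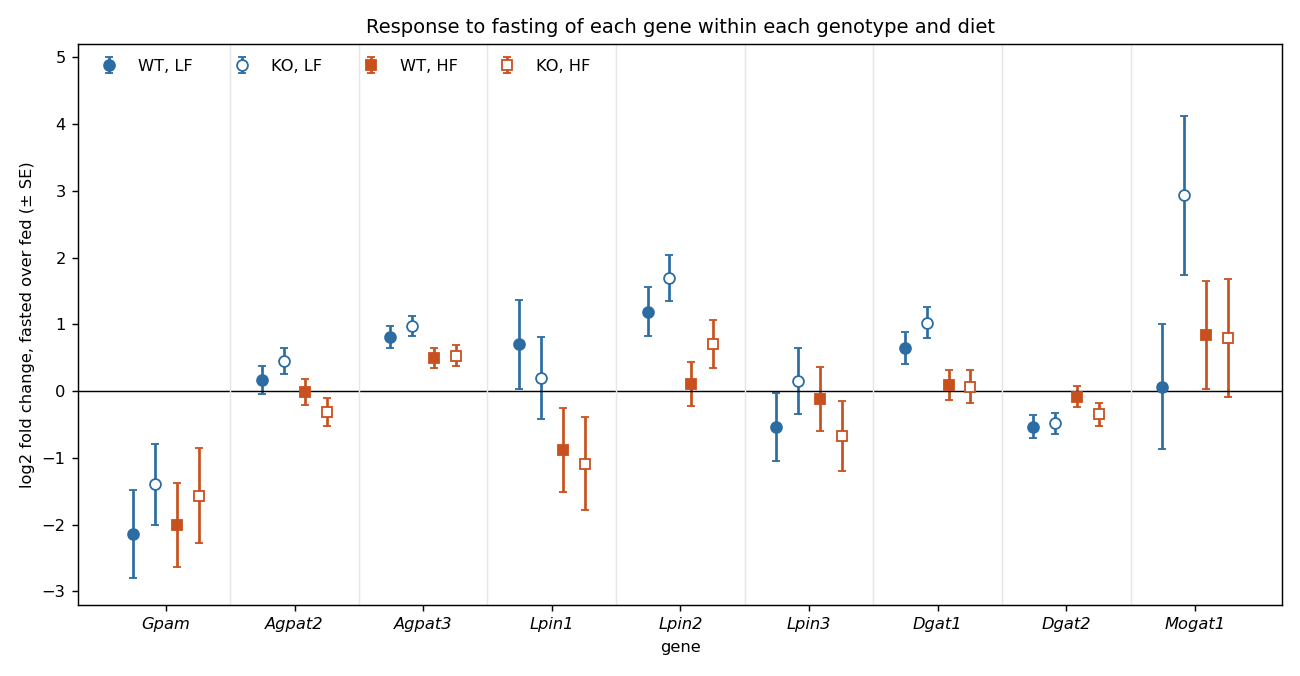
For each gene (x axis), points give the log2 fold change of fasted over fed mice (y axis) within each genotype and diet, with bars of 1 SE from the edgeR model (blue circles LF, orange squares HF, filled WT, open KO). *Gpam* lies below 0 and *Agpat3* above 0 in all 4 conditions, and the LF values of *Lpin2* and *Dgat1* lie above their HF values.

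The balance between both lipins differed between fed and fasted mice. The ratio of *Lpin1* to *Lpin2* (each as read count plus 0.5) had a median of 0.593 in the 15 fed mice (0.470 to 1.14) and of 0.212 in the 15 fasted mice (0.0982 to 1.16). On the log2 scale it was lower in fasted mice by 1.40 (mean -0.68 fed and -2.07 fasted; permutation of feeding labels within genotype and diet, two-sided p = 4e-05, adjusted p = 4e-04 over 10 ratio tests). With both left-out mice returned, 1 of them the library with heart markers, it was -0.87 and did not pass (permutation p = 0.0665). The difference was -1.24 in WT LF (exact permutation p = 0.229), -0.98 in WT HF (p = 0.0286), -1.61 in KO LF (p = 0.0286) and -1.75 in KO HF mice (exact permutation p = 0.0571). Exact tests cannot go below 0.0286 with 4 against 4 mice or 0.0571 with 4 against 3, so adjusted values within conditions were 0.0571 at the lowest. Fed and fasted mice did not overlap in WT HF, KO LF and KO HF, and in WT LF the overlap came from the 1 mouse with high *Lpin1*, at 1.16. Numerator and denominator are read counts of different genes, so the shift between states and not the size of the ratio is interpretable. The same reads entered the separate tests of *Lpin1* and *Lpin2*, so the ratio is not independent of these.

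*Dgat1*, which encodes an acyltransferase of the endoplasmic reticulum also active on other acyl acceptors, was higher in fasted mice on the LF diet. In WT mice on this diet it stood at 31.4, 40.4 and 38.9 CPM fed and at 70.6, 53.2, 53.3 and 53.5 CPM fasted, and in KO mice at 32.9, 25.6, 37.3 and 37.4 CPM fed and at 95, 38.5, 63.6 and 76.8 CPM fasted. Neither pair of groups overlapped. Under HF the WT values were 30.2, 34.7, 49.9 and 36.2 CPM fed and 29.6, 39.0, 46.4 and 46.1 CPM fasted, and the KO values 34.1, 44.2, 29.6 and 25.9 CPM fed and 35.4, 44.5 and 25.1 CPM fasted. Here fed and fasted mice covered the same range. The averaged change was 0.46 (SE 0.12, adjusted p = 0.0039, edgeR), 1.37-fold. It was 1.03 in KO LF mice (SE 0.23, adjusted p = 0.0013), 0.65 in WT LF mice (SE 0.24, adjusted p = 0.107), 0.09 in WT HF and 0.06 in KO HF mice (edgeR in all 4).

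*Dgat2*, the acyltransferase linked to newly made fatty acids, was lower in fasted mice. In WT mice on the LF diet it stood at 285, 384 and 429 CPM fed and at 232, 212, 224 and 344 CPM fasted, and in KO mice at 322, 371, 353 and 392 CPM fed and at 237, 236, 302 and 255 CPM fasted. The KO groups were separate, and the WT groups overlapped by 1 mouse on each side. On the HF diet the WT values were 291, 364, 347 and 336 CPM fed and 336, 350, 273 and 304 CPM fasted, and the KO values 345, 333, 357 and 332 CPM fed and 334, 249 and 224 CPM fasted. Both HF pairs overlapped. The averaged change was -0.36 (SE 0.08, adjusted p = 0.0012, edgeR), 1.28-fold lower, and with both left-out mice returned it was -0.32 and did not pass (adjusted p = 0.0889). It passed in WT LF (-0.53, adjusted p = 0.0471) and KO LF mice (-0.48, adjusted p = 0.0364, edgeR in both) and was -0.08 in WT HF and -0.35 in KO HF mice. These LF calls are narrow, since the WT call was lost in 21 and the KO call in 6 of 30 fits that each left out 1 mouse.

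The ratio of *Dgat2* to *Dgat1* had a median of 9.74 in the 15 fed mice (6.94 to 14.4) and of 5.87 in the 15 fasted mice (2.49 to 11.3). It was lower in fasted mice by 0.81 on the log2 scale, with means of 3.32 fed and 2.51 fasted. Permutation within genotype and diet gave a two-sided p = 9e-05 (adjusted p = 4.5e-04). This shift restates the separate calls of *Dgat1* (0.46) and *Dgat2* (-0.36) in the same mice and is not further evidence. Within conditions the difference was -1.18 in WT LF (exact permutation p = 0.0571), -1.46 in KO LF (p = 0.0286), -0.18 in WT HF (p = 0.486) and -0.42 in KO HF mice (p = 0.229). Among the compared mice on the LF diet, no fasted mouse reached the lowest fed one. Fasted values were 3.28, 3.97, 4.19 and 6.41 in WT and 2.49, 6.11, 4.73 and 3.31 in KO mice, against 9.05 or more in the fed mice. The left-out WT LF fed replicate 2 had a ratio of 3.32, within the range of the fasted mice. Within lane 7 alone the difference was -0.53 (permutation p = 0.114), and this lane holds none of the fed WT LF mice.

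**Figure D3:**
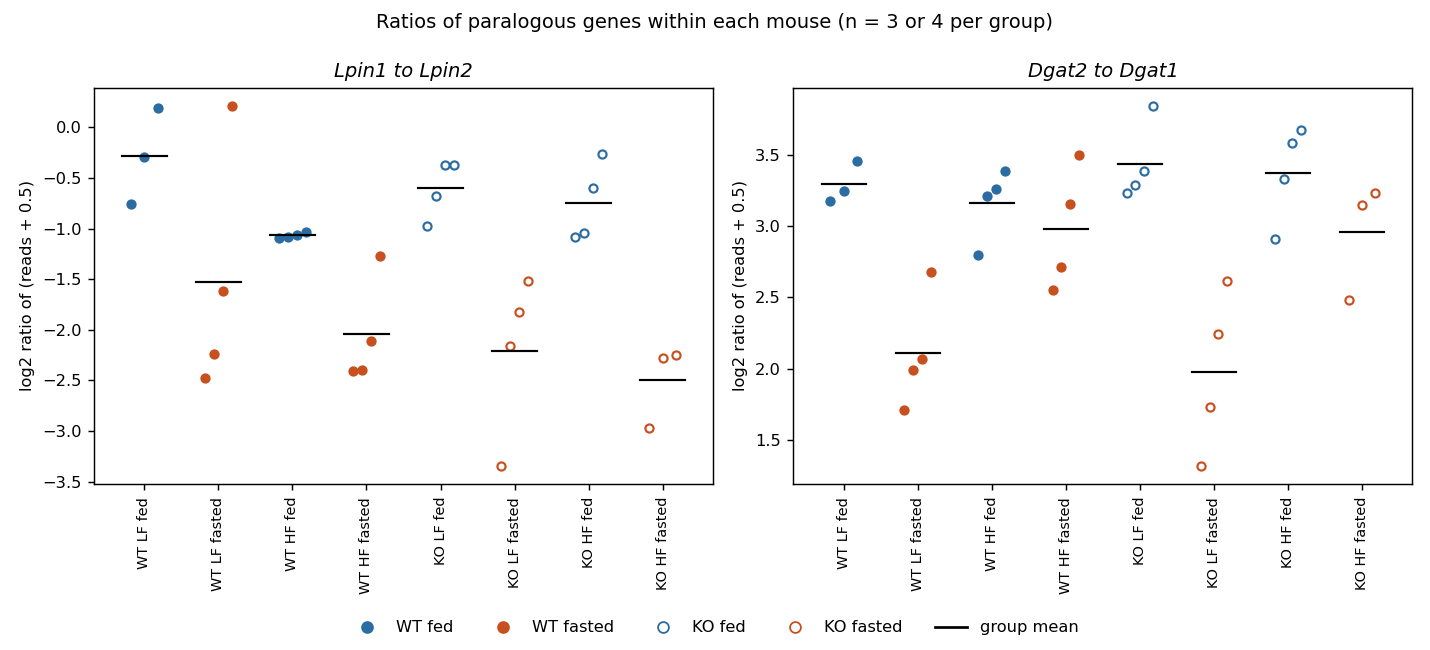
Each point is the log2 ratio of 2 genes in 1 mouse, computed on read counts plus 0.5, in the 8 groups (filled WT, open KO, blue fed, orange fasted, black line the group mean). For *Lpin1* to *Lpin2* the fasted groups lie lower on both diets, apart from 1 WT LF mouse, and for *Dgat2* to *Dgat1* the gap between fed and fasted mice is widest on the LF diet.

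*Mogat1* was near the counting limit, with 0 to 24 reads per mouse, where 3 reads correspond to 0.696 to 1.58 CPM. In KO mice on the LF diet it had 1, 0, 1 and 1 reads fed and 3, 6, 1 and 11 reads fasted, and no fold is given because the fed group lies under 3 reads throughout. WT mice on the HF diet had 7, 5, 3 and 11 reads fed and 24, 8, 4 and 16 reads fasted. The averaged fasting change was 1.16 (SE 0.49, adjusted p = 0.0978, edgeR) and depends in part on that KO group. Across the 4 conditions, CPM of fed and fasted mice did not overlap for 3 genes in WT LF (2 higher, 1 lower, against 20.1% of all genes in either direction). The same held for 5 in KO LF (4 higher, 1 lower, against 13.7%), 2 in KO HF (1 higher, 1 lower, against 10.5%) and none in WT HF (5.94%). The KO LF count includes *Mogat1*, whose fed and fasted groups both hold mice with 1 read and part only after scaling to library totals. By edgeR 4 of 9 genes were called in WT LF (7.53% of all genes called), 4 of 9 in KO LF (13.8%), 0 of 9 in KO HF (0.527%, 2 at unadjusted p under 0.05) and 0 of 9 in WT HF (0.424%, 2 at unadjusted p under 0.05).

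Whether the fasting response differed between diets was tested as an interaction. None of the 9 genes passed, where 2.46% of all genes were called, and 5 had an unadjusted p under 0.05. The response on the HF diet minus that on the LF diet was -0.76 for *Dgat1* (SE 0.24, adjusted p = 0.0808), -1.03 for *Lpin2* (SE 0.35, adjusted p = 0.137), -0.37 for *Agpat3* (SE 0.15, adjusted p = 0.248), -0.48 for *Agpat2* (SE 0.20, adjusted p = 0.270) and -1.43 for *Lpin1* (SE 0.65, adjusted p = 0.340, all edgeR). DESeq2 called 1 gene, *Lpin2* (-1.04, adjusted p = 0.0347), and leaving out KO LF fasted replicate 2 or KO HF fasted replicate 2 called *Dgat1* (-0.86 in both, adjusted p = 0.0215 and 0.0449, edgeR). *Lpin1* came to -0.60 without its high mouse. For *Gpam* the difference between diets was -0.02 with an SE of 0.66.

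The diet effect, HF against LF averaged over genotype and feeding, was called for 1 of the 9 genes by edgeR, where 3.49% of all genes were called, and 5 had an unadjusted p under 0.05. *Lpin1* was lower on the HF diet, with a median of 59.7 CPM (23.8 to 124) against 93.8 CPM (31 to 651) in 15 mice each. Its log2 fold change was -1.18 (SE 0.33, adjusted p = 0.0452, edgeR), and without WT LF fasted replicate 1 it was -0.76 (SE 0.21, adjusted p = 0.0468). The call stood near the threshold and passed in 8 of 30 fits that each left out 1 mouse, at -1.28 to -0.76. The other values were -0.36 for *Dgat1* (SE 0.12, adjusted p = 0.0793), -0.45 for *Lpin2* (SE 0.17, adjusted p = 0.175), -0.18 for *Agpat3* (adjusted p = 0.226) and 1.27 for *Mogat1* (SE 0.49, adjusted p = 0.161, all edgeR). Among fasted mice *Dgat1* was lower on the HF diet in both genotypes. WT mice had 29.6, 39.0, 46.4 and 46.1 CPM against 70.6, 53.2, 53.3 and 53.5 CPM, without overlap. The WT change of -0.52 (SE 0.22, adjusted p = 0.311, edgeR) did not pass. KO mice had 35.4, 44.5 and 25.1 CPM against 95, 38.5, 63.6 and 76.8 CPM, with 1 LF mouse inside the HF range. The interaction of diet and genotype was -0.25 for *Dgat1* (SE 0.23) and did not pass. In fasted KO mice 5 of the 9 genes had an unadjusted p under 0.05 for diet by edgeR. Only the *Dgat1* change of -0.97 (SE 0.25, adjusted p = 0.0301, edgeR) passed there, where 1.7% of all genes were called. It was lost without KO LF fasted replicate 1 (-0.77, adjusted p = 0.107) or replicate 4 (-0.90, adjusted p = 0.0856), and without KO HF fasted replicate 1 (-0.98, adjusted p = 0.115) or replicate 3 (-0.77, adjusted p = 0.236). It was also lost without both mice with adrenal markers, which are in its LF arm (-0.92, adjusted p = 0.0886), and on the mice of the compared groups alone (-0.96, adjusted p = 0.394). In WT fed (0.0778%), WT fasted (1.12%) and KO fed mice (0.00865% of all genes called), edgeR called 0 of the 9 genes for diet, with 0, 4 and 1 at unadjusted p under 0.05.

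Loss of MCAD was not accompanied by a detectable change in any of the 9 genes. Averaged over diet and feeding, edgeR called 0 of 9 for genotype, where 0.00865% of all genes were called, and 0 had an unadjusted p under 0.05. The KO minus WT difference was 0.09 for *Lpin2* (SE 0.17), -0.01 for *Agpat3* (SE 0.08), -0.07 for *Dgat1* (SE 0.12), -0.05 for *Dgat2* (SE 0.08), 0.05 for *Agpat2* (SE 0.10) and -0.06 for *Gpam* (SE 0.33). *Lpin1* was at -0.44 (SE 0.32), and at -0.02 (SE 0.21) without the high WT mouse. *Mogat1* was at -0.86 (SE 0.49) on few reads. Within each condition, on its own 7 or 8 mice, edgeR called 0 of 8 genes tested in LF fed, 0 of 7 in LF fasted, 0 of 8 in HF fed and 0 of 9 in HF fasted mice, with 0 at unadjusted p under 0.05 in each (0.0193%, 0.0104%, 0.00998% and 0.0096% of all genes called). The SEs there were 0.13 to 0.21 for *Dgat2*, so that small changes were not detectable at this number of mice. They reached 0.84 for *Lpin1* in LF fasted mice, and 0.76 for *Gpam* and 0.68 for *Mogat1* in HF fasted mice, where larger changes could also be missed. *Mogat1* was tested only in HF fasted mice, and *Gpam* was not tested in LF fasted mice. Interactions of genotype with fasting and with diet called 0 of the 9 genes, and 0% of all genes, with 0 of the 9 at unadjusted p under 0.05.

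Across the 30 mice the genes fell into patterns of their own, given here as descriptions since the mice share 8 groups and the fasting contrast dominates. *Agpat3* and *Lpin2* varied together (Pearson r of log2 CPM 0.773), as did *Lpin2* and *Dgat1* (0.766), whereas *Agpat3* and *Dgat2* ran opposite (-0.816). *Lpin1* and *Lpin2* had r = 0.406. The genes most like *Agpat3* were *Acot1* (0.958), an acyl-CoA thioesterase, *Ephx2* (0.948), a soluble epoxide hydrolase, and *Retsat* (0.940), a retinol saturase. The genes most like *Gpam* were *Acacb* (0.821), which encodes an acetyl-CoA carboxylase, *Pnpla3* (0.806) and *Chrna4* (0.798). *Dgat2* was most like *Cyb5r3* (0.855), *Pygl* (0.852), the liver glycogen phosphorylase, and *Gckr* (0.850), the glucokinase regulator. *Lpin2* was most like *Slc25a47* (0.893), *St3gal5* (0.845) and *Gpt2* (0.837), an alanine transaminase, and *Dgat1* most like *Phb2* (0.864), *AU022252* (0.844) and *Etfb* (0.839). *Lpin1* was most like *Slc25a15* (0.756), the ornithine carrier, *Ddit4* (0.676) and *Cox6c* (0.675). Likeness was lower for *Agpat2* (*Mrap* 0.702, *Apoc4* 0.701, *Esrp2* 0.659), *Lpin3* (*Fibp* 0.687, *Med19* 0.671, *Gstcd* 0.658) and *Mogat1* (*Clstn3* 0.676, *Wwtr1* 0.648, *Dennd2d* 0.643).

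Of 7 other acyltransferases tested, 3 rose with fasting, 0 fell and 4 did not pass, with a median log2 fold change of 0.39, where 18.9% of all genes were called and 9.79% were higher. *Gpat3*, a glycerol-3-phosphate acyltransferase of the endoplasmic reticulum, went from a mean of 3.49 ± 2.99 CPM (SD, n = 15) fed to 14.2 ± 5.77 CPM fasted, a change of 2.34 (SE 0.33, adjusted p = 4.2e-06, edgeR), opposite in direction to *Gpam*. *Gpat4*, of the same family, changed by 0.79 (SE 0.17, adjusted p = 0.0013, edgeR), and *Lclat1* by 0.39 (adjusted p = 0.0259). Of 6 genes of glycerol 3-phosphate supply, 4 rose, 0 fell and 2 did not pass, beside the same 9.79% of all genes. Glycerol kinase *Gk* rose by 1.19 (SE 0.12), from 135 ± 23.2 to 310 ± 91.1 CPM, the glycerol-3-phosphate dehydrogenase gene *Gpd1* by 0.73 (SE 0.11), *Pck1*, a gluconeogenic and glyceroneogenic enzyme, by 1.57 (SE 0.25), and the glycerol channel gene *Aqp9* by 0.42 (SE 0.08).

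**Figure D4:**
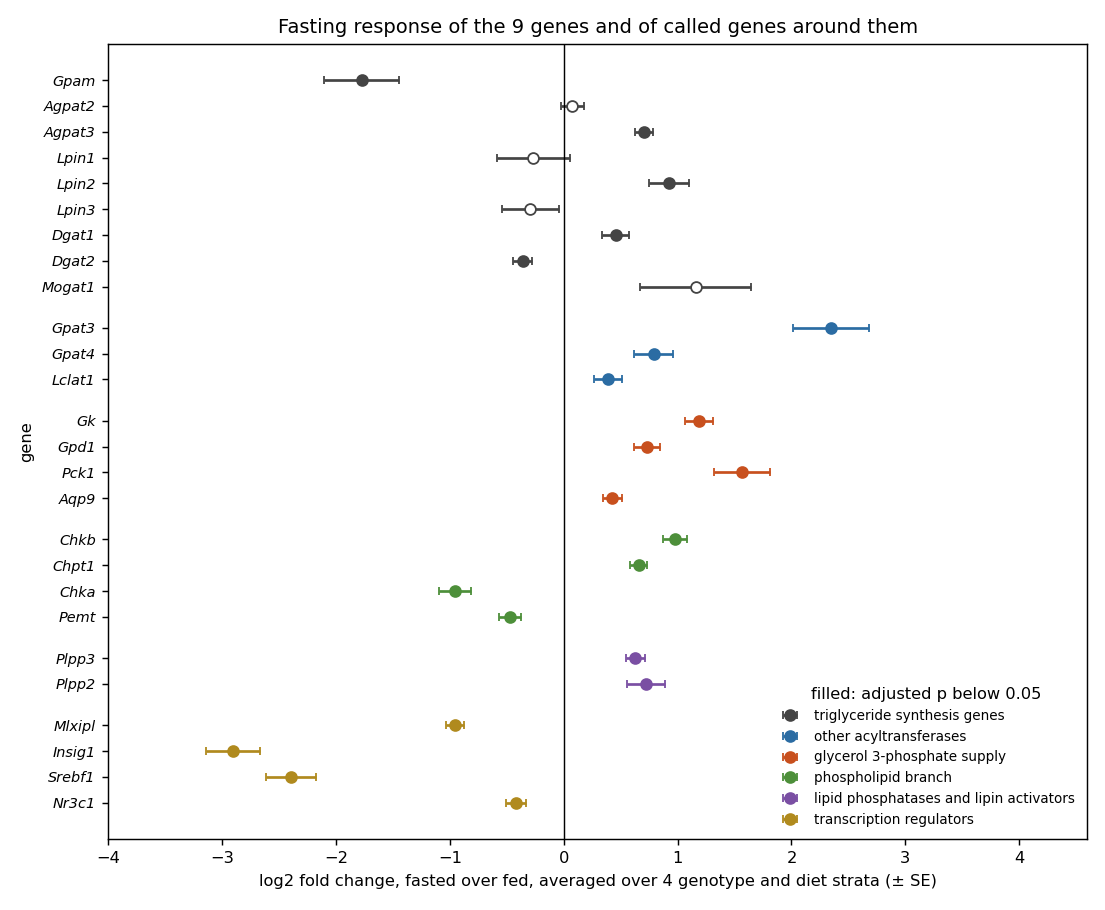
Points give the log2 fold change of fasted over fed mice averaged over genotype and diet (x axis). Bars are 1 SE from the edgeR model. Drawn are the 9 genes and, from the lists around them, called genes chosen by smallest p (y axis, coloured by list). *Ppara* and *Insig2*, which rose with fasting, and *Pcyt2*, which fell, were also called but are not drawn. Filled points have an adjusted p below 0.05. *Gpam* lies with *Srebf1*, *Insig1* and *Mlxipl* on the lower side, and *Gpat3*, *Gpat4* and the glycerol 3-phosphate genes lie on the higher side.

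The branch toward phospholipids was mixed, with 2 genes up, 3 down and 6 not passing of 11 tested, against 9.79% of all genes higher and 9.14% lower. Choline kinase genes parted, *Chkb* rising by 0.98 (SE 0.10) and *Chka* falling by 0.96 (SE 0.14) on the log2 scale, while *Chpt1*, which uses diacylglycerol for phosphatidylcholine, rose by 0.66 (SE 0.07) and *Pemt* fell by 0.48 (SE 0.10). *Chka* was also lower on the HF diet (-0.50, adjusted p = 0.0425, edgeR), a call that passed in 9 of 30 fits that each left out 1 mouse. The fasting responses of *Chkb* (-0.79, SE 0.20, adjusted p = 0.0258) and *Chpt1* (-0.68, SE 0.15, adjusted p = 0.0084, edgeR) were smaller on the HF than on the LF diet, an interaction called for 2.46% of all genes. Of 5 genes of lipid phosphatases and lipin activators, 2 rose and 3 did not pass (*Plpp3* 0.63, *Plpp2* 0.72, both phosphatases of the plasma membrane), and of 5 diacylglycerol kinase genes tested 0 passed by edgeR and 2 had an unadjusted p under 0.05.

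Of 9 transcription regulators, 2 rose, 4 fell and 3 did not pass for fasting, against 9.79% of all genes higher and 9.14% lower. *Srebf1*, the SREBP-1 gene, fell by 2.40 (SE 0.22), from 183 ± 50.3 to 36.7 ± 21.1 CPM, *Insig1*, an anchor of SREBP processing and itself an SREBP target, fell by 2.90 (SE 0.24), *Mlxipl*, the ChREBP gene, fell by 0.96 (SE 0.08) and *Nr3c1*, the glucocorticoid receptor gene, fell by 0.42 (SE 0.09) on the log2 scale. *Ppara* rose by 0.63 (SE 0.13, adjusted p = 7.2e-04) and *Insig2* by 0.35 (SE 0.11, adjusted p = 0.0216, edgeR in both). The fall was smaller on the HF diet for *Insig1* (interaction 2.59, adjusted p = 0.0031), *Mlxipl* (0.81, adjusted p = 0.0025) and *Nr3c1* (0.73, adjusted p = 0.0182). The interaction also passed for *Insig2* (-0.91, adjusted p = 0.0207) and did not pass for *Srebf1* (1.33, adjusted p = 0.111, all edgeR). On the HF diet *Pparg* was higher (1.23, SE 0.28, adjusted p = 0.0080), 10.1 ± 4.31 against 4.27 ± 2.29 CPM (SD, n = 15 each), and *Ppargc1a* lower (-0.54, SE 0.15, adjusted p = 0.0385, edgeR). In 30 fits that each left out 1 mouse, the diet call passed in 30 for *Pparg* and in 16 for *Ppargc1a*. With both left-out mice returned, none of the 3 diet calls among these lists remained. Adipose markers (7 genes) summed to 3.62 to 73.4 CPM in the 30 mice, and their part in the *Pparg* difference was not tested.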

How the data were processed

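Whole-liver RNA of 32 mice was analysed from the deposited table of raw counts per gene. Per the labels and the study's methods, the authors made 3′ libraries, sequenced single reads of 50 bases, mapped them to GRCm38 with HISAT 0.1.5, sorted them with SAMtools 1.2 and counted reads per gene with HTSeq 0.6.1p1 in union mode. Rows are Ensembl genes, and GENCODE vM21 symbols matched 19913 of 20076. CPM are counts scaled to the TMM-normalised library total, set separately for both left-out mice.

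edgeR 4.0.16 (R 4.3.3) fitted 1 mean per group over 30 mice with filterByExpr, leaving 11566 genes, and robust quasi-likelihood F tests. KO was compared with WT within a condition on its own mice. P-values were adjusted by Benjamini-Hochberg over all genes tested, and log2 fold changes are unshrunk. Ratios used 0.5 added to each read count and 100000 permutations (scipy 1.17.1) pooled, exact ones within conditions. The smallest p that these permutations give is 1e-05. Alternatives were DESeq2 1.42.0, limma 3.58.1, other normalization and filters, lane, age and replicate terms, and mice left out. The limit of 3 reads for a count of 0 reflects counting error alone.

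The members, the lists and the tests were chosen with earlier results of these data known. All 9 members are named. From each list, up to 4 genes with the smallest p for fasting and up to 2 for diet among those passing are named. *Ppara*, *Insig2* and *Pcyt2*, which also passed for fasting, are named beside these, as are the 3 genes with the highest Pearson r for each member. The labels put 16 libraries on each lane, while the methods describe pools of 8, so lane terms rest on the labels. Separate mice are the replicates, and littermates are not identified. Listed genes outside the table were not analysed here. The replicate numbers showed no sign of pairing the mice, as the correlation of deviations in 28 same-numbered pairs ran from -0.13 to 0.168. With 3 or 4 mice per group, this does not settle whether they do.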

Additional observations from a re-analysis of the deposited data

Results flagged for a closer look

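Among 54 sets of 4 mice (1 gene in 1 group each), 3 had 1 mouse far from the others by Dixon's criterion, about the number chance gives at 1 in 20. *Agpat3* in KO HF fed replicate 1 was 108 CPM, against 119 to 120 CPM in the other 3 mice of the group. That mouse also carries pancreas and skeletal muscle markers, whose part was not tested. *Dgat1* in WT LF fasted replicate 1 was 70.6 CPM, against 53.2 to 53.5 CPM. This is the mouse with the high *Lpin1* value. *Mogat1* in KO LF fed replicate 2 was at 0 CPM, against 0.312 to 0.342 CPM, a difference of 1 read.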

How the results depend on the processing

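Of the 5 fasting calls, *Agpat3* passed under all 12 other settings, *Gpam* and *Dgat1* under 11, *Lpin2* and *Dgat2* under 10, and all 5 in every fit that left out 1 mouse, where 5 to 6 genes were called. Within lane 7, which holds 16 mice and no fed WT LF mouse, 1 gene was called for fasting. The single diet call, *Lpin1*, became 0 with all 32 mice, limma voom, no filter on low counts, lane or age as a term, either lane alone, without both adrenal mice (KO LF fasted replicates 3 and 4), and without both pancreas mice (chosen after seeing the data), and was 0 to 2 when 1 mouse was left out. With a replicate block, although the numbers showed no sign of pairing, 5 genes were called for fasting and 0 for diet. Within conditions the block gave 5 rather than 8 calls for fasting and 0 rather than 1 for diet. Calls for fasting within conditions numbered 4 with all 32 mice or with no filter, 5 with lane as a term, and 5 to 8 with 1 mouse left out. Diet calls within conditions numbered 3 with DESeq2, 0 without both adrenal mice or with the compared mice alone, and 0 to 2 with 1 mouse left out. The interaction of fasting and diet gave 1 call with DESeq2 and 0 to 1 with 1 mouse left out. Diet calls among the other pathway genes fell from 3 to 0 with all 32 mice. The *Lpin1* to *Lpin2* shift was -0.87 with all 32 mice (permutation p = 0.0665) and -1.54 to -1.30 with 1 mouse left out, and that of *Dgat2* to *Dgat1* was -0.53 within lane 7 (permutation p = 0.114) and -0.86 to -0.75 with 1 mouse left out. The causes were not tested. Genotype, its interactions and KO against WT within conditions gave 0 calls in all fits. Uncalled values changed sign as follows, *Gpam* for diet, *Lpin1* for fasting and *Lpin1* for genotype from -0.53, -0.27 and -0.44. Within lane 8 the fasting change was -0.119 for *Agpat2* and 0.0257 for *Lpin3*, the diet change 0.0202 for *Agpat3*, -0.0667 for *Dgat2* and -0.35 for *Lpin3*, and the genotype difference 0.35 for *Lpin1*. Within lane 7 the diet change was 0.0119 for *Gpam* and the genotype difference -0.20 for *Lpin2*. With all 32 mice the fasting change was 0.0240 for *Lpin1* and the genotype difference -0.0391 for *Lpin2*. The diet change of *Lpin3* was -0.000101 with lane as a term, -0.0464 without the adrenal mice, -0.0239 without the pancreas mice and -0.0955 to 0.0944 with 1 mouse left out. With 1 mouse left out the diet change of *Dgat2* was -0.00178 to 0.0909 and the genotype difference of *Lpin2* -0.000340 to 0.177. Depth limits *Gpam*, *Lpin3* and *Mogat1*, which had 77 reads or fewer in each mouse.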

Other observations

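The 2 left-out libraries gave the following levels, scaled separately. In WT LF fed replicate 2, whose hepatocyte markers summed to 30610 CPM, *Dgat2* was 138 CPM, *Agpat2* 61.1 CPM and *Agpat3* 80.3 CPM, each below all 30 other mice, and its *Dgat2* to *Dgat1* ratio of 3.32 lay within the range of fasted mice. Its *Gpam* level was 4.72 CPM and its *Lpin2* level 190 CPM. In KO HF fasted replicate 4, with the heart markers, *Lpin1* was 179 CPM and *Lpin2* 7.68 CPM, a ratio of 22.9, while *Dgat1* was 19.5 CPM and *Agpat2* 30.1 CPM.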
